A study of Mus musculus with 92 samples.

Results

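The genes of the B cell receptor complex and of the B lineage were followed in mice that carry the G93A-SOD1 transgene and in their wild type littermates. The set holds 9 genes (Vpreb3, Cd79a, Cd79b, Blk, Cd72, Cd22, Ms4a1, Fcer2a and Pax5) of the 15967 genes that the arrays name. The set was chosen with earlier results of these data known. Its probes were taken by gene symbol, and the brightest detected probe stood for each gene. The array carried 12 probes for them. The study ran 92 Illumina bead arrays, of which 31 were hybridised with globin-depleted whole blood RNA, 31 with lumbar spinal cord RNA and 30 with RNA of the left tibialis anterior muscle. Blood came from G93A-SOD1 mice at 100 days of age (8 arrays), wild type mice at 100 days (7 arrays), G93A-SOD1 mice at 70 days (8 arrays) and wild type mice at 70 days (8 arrays). Spinal cord groups had the same sizes, and the muscle group of G93A-SOD1 mice at 100 days had 7 arrays. Every array, wild type included, bears the strain name B6.Cg-Tg(G93A-SOD1)1Gur/J, and the labels give neither the promoter of the transgene nor the sex of the mice. The labels call the arrays of a group replicates without saying how the animals were taken, so p-values measure the spread between these arrays.

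B cells recognise antigen through a membrane immunoglobulin that signals through a pair of partner chains, CD79A and CD79B, whose phosphorylation by kinases such as BLK starts the response. Coreceptors set its strength: CD22 and CD72 are inhibitory receptors that recruit a phosphatase, while CD20 (encoded by Ms4a1) and CD23 (Fcer2a, the low-affinity IgE receptor) are surface proteins of mature B cells. VPREB3 is a small immunoglobulin-domain protein of the B lineage that is related to the surrogate light chain, and PAX5 is the transcription factor that commits precursors to the lineage. In mouse blood, lymphocytes are the most abundant nucleated cells and B cells are a large share of them. The G93A-SOD1 line expresses a mutant human superoxide dismutase and develops a motor neuron disease used to model amyotrophic lateral sclerosis.

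Promoter sequences are given for the 3 genes that had the smallest p-values between genotypes in blood, Vpreb3, Cd72 and Cd22, and for the receptor chain Cd79a. RefSeq windows of 300 bases around an annotated start (build GRCm38.p6) were available for 6 of the 9 genes. The windows printed for Vpreb3, Cd72 and Cd22 lie inside the annotated span of the gene. The window of Cd79a spans the outer start of its gene. Capitals mark matches to 4 motifs searched on both strands: the octamer ATGCAAAT bound by Oct factors, the palindromic EBF core CCCNNGGG, the E-box CACCTG and the PU.1 core GAGGAA. The marked matches overlap in none of these windows.
Vpreb3, chr10:75948050-75948349, plus strand: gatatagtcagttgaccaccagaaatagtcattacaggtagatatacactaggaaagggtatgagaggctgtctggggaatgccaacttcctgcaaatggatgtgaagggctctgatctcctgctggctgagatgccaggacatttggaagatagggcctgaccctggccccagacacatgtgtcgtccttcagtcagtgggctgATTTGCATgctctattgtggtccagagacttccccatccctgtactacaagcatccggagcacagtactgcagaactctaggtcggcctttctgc
Cd72, chr4:43454577-43454876, minus strand: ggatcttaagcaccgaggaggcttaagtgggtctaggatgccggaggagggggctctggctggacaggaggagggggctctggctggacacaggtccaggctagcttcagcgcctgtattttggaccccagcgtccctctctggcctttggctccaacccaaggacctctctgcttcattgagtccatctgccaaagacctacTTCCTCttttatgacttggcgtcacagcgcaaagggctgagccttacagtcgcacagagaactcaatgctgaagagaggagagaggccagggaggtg
Cd22, chr7:30878979-30879278, minus strand: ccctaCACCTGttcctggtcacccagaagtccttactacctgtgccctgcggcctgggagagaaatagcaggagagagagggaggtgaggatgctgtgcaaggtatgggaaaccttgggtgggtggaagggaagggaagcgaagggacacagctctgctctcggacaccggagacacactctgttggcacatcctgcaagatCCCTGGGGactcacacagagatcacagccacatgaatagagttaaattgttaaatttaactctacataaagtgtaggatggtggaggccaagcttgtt
Cd79a, chr7:24897247-24897546, plus strand: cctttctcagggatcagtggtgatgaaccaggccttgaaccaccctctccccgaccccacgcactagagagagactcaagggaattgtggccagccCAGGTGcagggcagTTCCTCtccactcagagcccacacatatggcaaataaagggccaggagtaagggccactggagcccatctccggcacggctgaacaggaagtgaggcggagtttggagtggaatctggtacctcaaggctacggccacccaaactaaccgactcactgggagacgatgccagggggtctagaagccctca
The Vpreb3 window held 1 octamer, which 1.74% of 32851 promoter windows of this length also held. The Cd22 window held 1 EBF core (13.7% of windows) and 1 E-box (20.2% of windows). The Cd72 window held 1 PU.1 core (28.3% of windows), and the Cd79a window held 1 E-box and 1 PU.1 core. The Pax5 window (chr4:44710645-44710944, minus strand) held none of the 4 motifs. These matches describe the letters of the windows and are not evidence of binding.

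In blood, 8 of the 9 genes were detected on all 31 arrays (detection p under 0.05). Pax5 was detected on 2 of 31 arrays, 1 of G93A-SOD1 mice at 100 days and 1 of wild type mice at 70 days, and it did not enter the tests because a probe had to be detected on at least 7 arrays. The label of blood as a tissue with B cells is therefore borne by 8 of the 9 markers, while the lineage factor itself was not well above background. Across all probes, blood arrays detected 6809 to 9691 probes. The median signal was 74.4 to 93.6 on 30 blood arrays and 190.8 on replicate 6 of wild type at 70 days, and results are given with and without that array where it bears on them. Precision is set by the 7 or 8 arrays of each group. Levels are log2 intensities after background correction and quantile normalization, and differences are log2 differences of group means from a limma fit to the 4 blood groups.

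**Figure D1:**
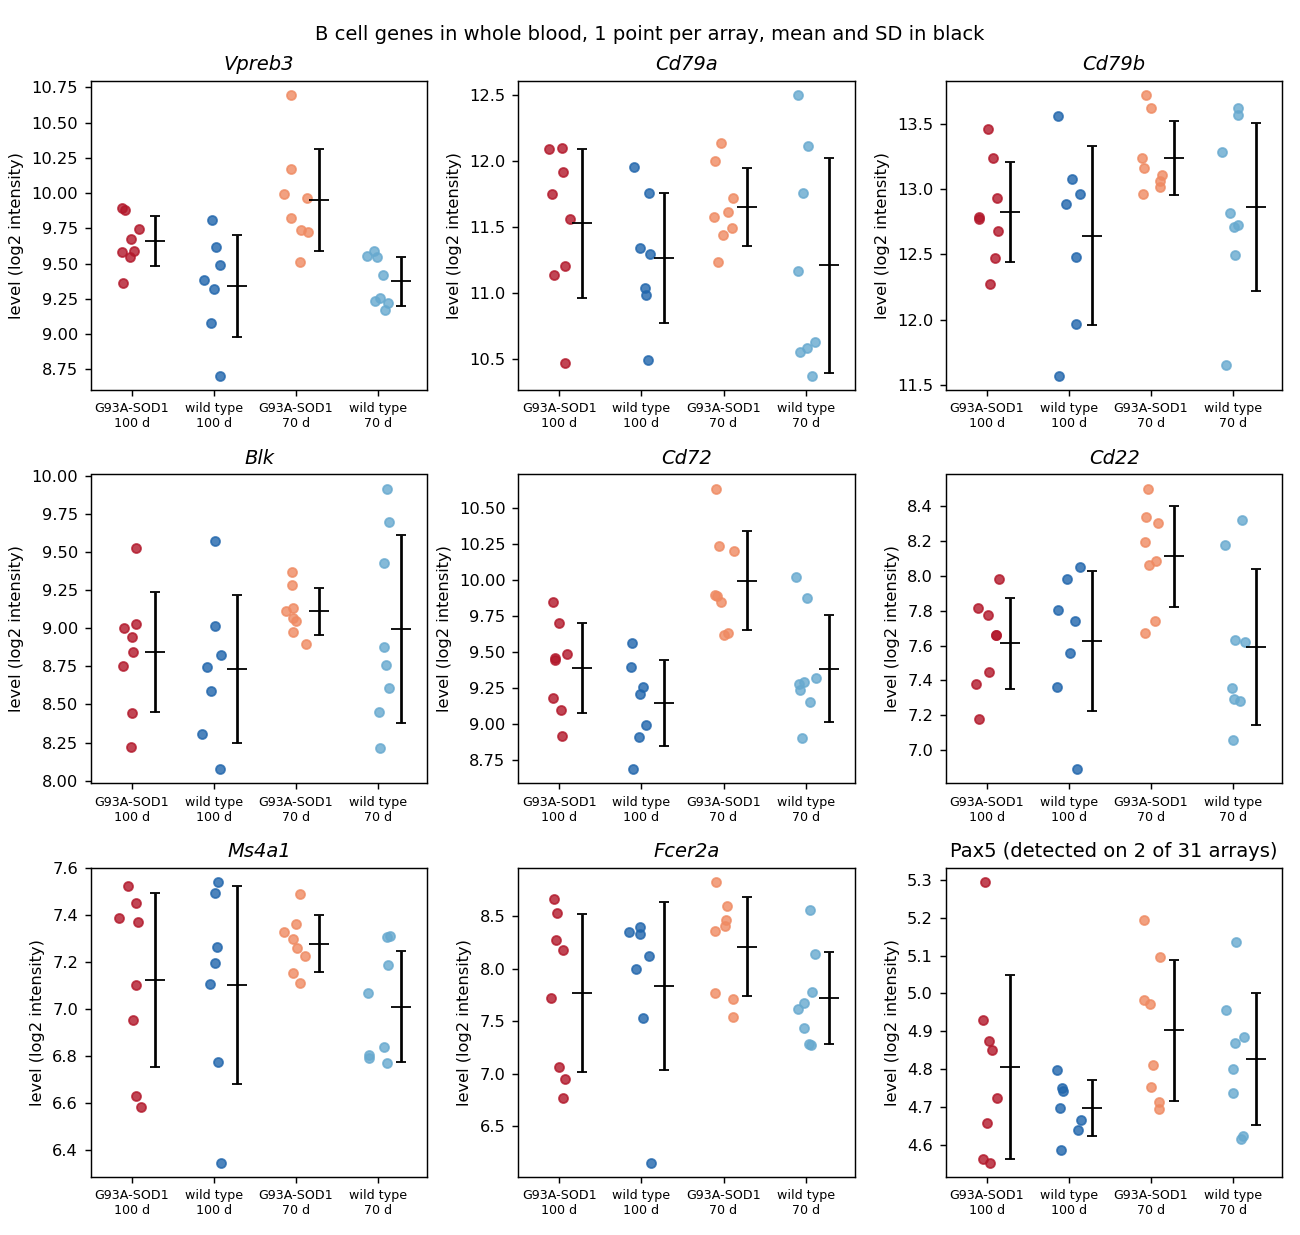
Level (log2 intensity) of each B cell gene on each blood array (points), by genotype and age, with the group mean and SD in black. For 8 genes the G93A-SOD1 mean lies above the wild type mean at 70 days, all groups overlap, and Pax5 lies between 4.55 and 5.29, detected on 2 of 31 arrays.

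At 70 days all 8 tested genes had a higher mean in G93A-SOD1 blood than in wild type blood, and none passed the test. Of the 8403 genes tested, 0.0714% passed (adjusted p under 0.05, limma with Benjamini-Hochberg adjustment over all genes), and 0 of these 8 genes did. At an unadjusted p under 0.05, 3 of the 8 were higher (Vpreb3, Cd72 and Cd22) and 0 were lower, where 4.17% of all genes were higher and 2.09% lower. The median difference of the 8 genes was 0.46 log2 units, against 0.05 over all genes, of which 62.1% lay above 0. In whole blood, a different number of B cells and a different amount of RNA per B cell cannot be told apart.

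Vpreb3 had a lowest, median and highest level of 9.51, 9.90 and 10.70 in G93A-SOD1 blood at 70 days, against 9.18, 9.34 and 9.59 in wild type blood. On 7 of 8 G93A-SOD1 arrays it was above every wild type array, and the groups overlapped through the remaining array. The difference was 0.58 log2 units (SE 0.14, a fold of 1.49, adjusted p = 0.216), which ranked 12 among all genes by p-value. It averaged 9.95 ± 0.36 in G93A-SOD1 blood and 9.38 ± 0.17 in wild type blood (SD, n = 8 each).

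Cd72, a coreceptor that restrains receptor signalling, had levels of 9.62, 9.89 and 10.64 (lowest, median, highest) in G93A-SOD1 blood at 70 days, against 8.91, 9.29 and 10.02 in wild type blood. All 8 G93A-SOD1 arrays lay above the wild type median, and 3 lay above every wild type array. The difference was 0.61 (SE 0.17, a fold of 1.53, adjusted p = 0.354) and ranked 20. Cd22, the inhibitory sialic acid receptor, had levels of 7.67, 8.14 and 8.50 in G93A-SOD1 blood, against 7.06, 7.49 and 8.32 in wild type blood. Again all 8 G93A-SOD1 arrays lay above the wild type median, with overlap. The difference was 0.52 (SE 0.17, adjusted p = 0.687).

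The receptor chains showed smaller differences relative to their spread. Cd79a averaged 11.65 ± 0.29 in G93A-SOD1 blood at 70 days and 11.21 ± 0.81 in wild type blood (SD, n = 8 each), a difference of 0.44 (SE 0.27, adjusted p = 0.865). Single arrays of Cd79a spanned 11.24 to 12.13 in G93A-SOD1 blood and 10.37 to 12.50 in wild type blood, so that the G93A-SOD1 range lay inside the wild type range. Cd79b averaged 13.24 ± 0.28 in G93A-SOD1 blood and 12.86 ± 0.64 in wild type blood (SD, n = 8 each), a difference of 0.38 (SE 0.25, adjusted p = 0.881). The kinase gene Blk averaged 9.11 ± 0.15 in G93A-SOD1 blood and 8.99 ± 0.62 in wild type blood (SD, n = 8 each). Its difference of 0.12 (95% interval -0.32 to 0.55, adjusted p = 0.973) was the smallest of the 8. Single wild type arrays weighed on these genes: Blk was 0.0059 without replicate 3 of wild type at 70 days and 0.25 without replicate 6, and Cd79b was 0.20 without replicate 2.

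Of the surface genes of mature B cells, Ms4a1 averaged 7.28 ± 0.12 in G93A-SOD1 blood at 70 days and 7.01 ± 0.24 in wild type blood (SD, n = 8 each), a difference of 0.27 (SE 0.15, adjusted p = 0.856). Fcer2a averaged 8.21 ± 0.47 in G93A-SOD1 blood and 7.72 ± 0.44 in wild type blood (SD, n = 8 each), a difference of 0.49 (SE 0.30, adjusted p = 0.865). All 8 G93A-SOD1 arrays lay above the wild type median for 7 of the 8 genes, and 7 of 8 arrays did for Fcer2a. The share of all genes with such counts is not given here, and 62.1% of all genes had a difference above 0. The 8 genes also vary together from array to array (median r 0.56), so these counts are not separate results. The second detected probes of Cd79b and Fcer2a gave 0.20 and 0.25 at 70 days, in the direction of the brighter probes.

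The spread between arrays was also compared, without a test. At 70 days the SD between arrays was smaller in G93A-SOD1 than in wild type blood for 6 of the 8 genes, all but Vpreb3 and Fcer2a, with medians of 0.29 and 0.44. At 100 days it was likewise smaller for 6 of 8 genes, with medians of 0.38 in G93A-SOD1 and 0.45 in wild type blood. For list means of other blood cells the SD went both ways at 70 days. It was smaller in G93A-SOD1 blood for monocytes (0.37 against 0.93), red cells (0.24 against 0.62) and platelets (0.46 against 0.72). It was larger for neutrophils (0.84 against 0.76), T cells (0.16 against 0.11) and natural killer cells (0.16 against 0.15). The share over all genes is not given here. Replicate 6 of wild type at 70 days, the array of raised background, was the highest of its group for 5 of the 8 genes, and on it the mean of 11 red cell genes stood at -1.40 log2 units relative to the mean of all wild type blood arrays. The part of that array's background or composition was not tested. Without it the median difference of the 8 genes at 70 days was 0.55, and Cd72 (0.70, adjusted p = 0.145), Vpreb3 (0.61, adjusted p = 0.194) and Cd22 (0.63, adjusted p = 0.316) still missed the threshold.

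At 100 days the genotypes lay closer. The differences of 6 genes were above 0 and those of Fcer2a (-0.07) and Cd22 (-0.01) below, with a median of 0.15 against 0.02 over all genes. None of the 8 passed, where 0.0595% of all genes did. Over all genes, 54.2% lay above 0. At an unadjusted p under 0.05, 1 of the 8 genes (Vpreb3) was higher and 0 were lower, where 1.49% of all genes were higher and 0.833% lower. Vpreb3 had levels of 9.36, 9.63 and 9.90 (lowest, median, highest) in G93A-SOD1 blood, against 8.71, 9.39 and 9.81 in wild type blood. Its difference was 0.32 (SE 0.15, adjusted p = 1.0), with 7 of 8 G93A-SOD1 arrays above the wild type median.

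Cd72 had levels of 8.92, 9.45 and 9.85 in G93A-SOD1 blood at 100 days, against 8.69, 9.21 and 9.57 in wild type blood, a difference of 0.24 (SE 0.17, adjusted p = 1.0). Cd79a averaged 11.53 ± 0.56 (SD, n = 8) in G93A-SOD1 blood and 11.26 ± 0.49 (SD, n = 7) in wild type blood, a difference of 0.26 (SE 0.28). The differences of Cd79b, Blk and Ms4a1 were 0.18, 0.11 and 0.02, each smaller than its SE, and the 95% interval of Ms4a1 was -0.30 to 0.34. For Fcer2a the second probe gave 0.25, opposite in sign to the brighter probe, with SEs of 0.24 and 0.31.

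One wild type array weighed on this age. Replicate 7 of wild type at 100 days was the lowest of its group for all 8 genes, with a Cd79b level of 11.57 and a Fcer2a level of 6.15. Without it the median difference of the 8 genes was 0.00, and Ms4a1 (-0.10) joined Fcer2a (-0.35) and Cd22 (-0.14) below 0. On the same array the mean of 18 tested T cell genes was 0.73 log2 units below the wild type mean (a list mean of -0.73), and the red cell list (11 genes) stood at 0.99, the platelet list (12 genes) at 0.98 and the neutrophil list (14 genes) at 0.75. The part of blood composition in the result was not tested.

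**Figure D2:**
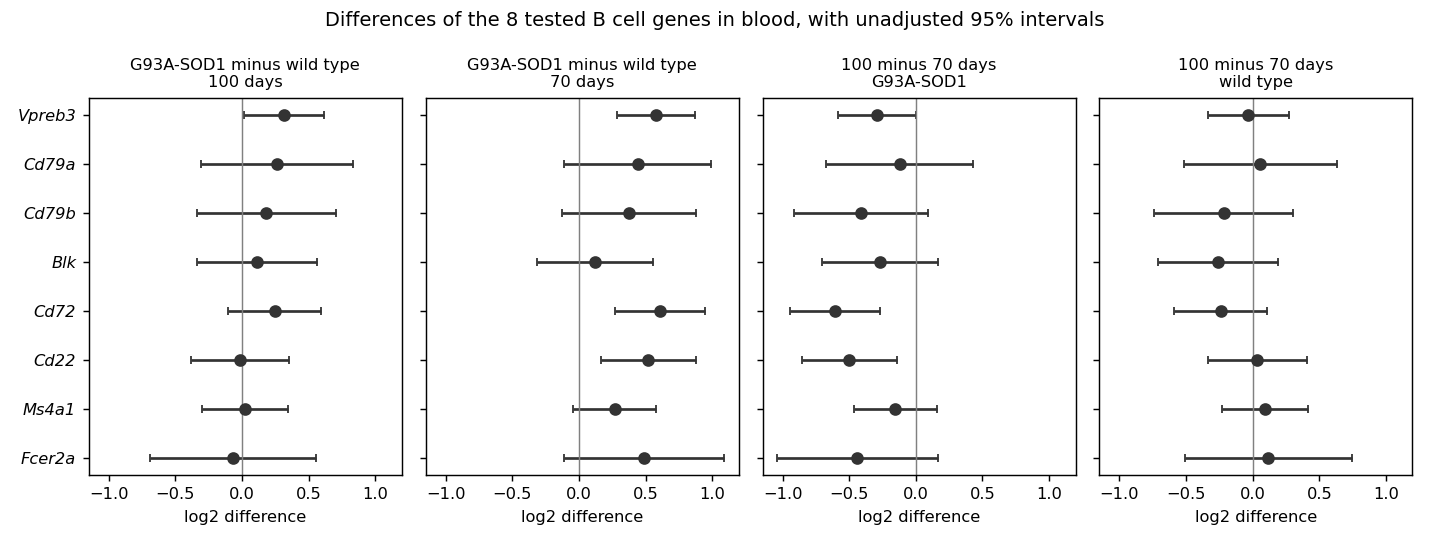
Log2 difference (x axis) of the 8 tested genes in blood with unadjusted 95% intervals, for G93A-SOD1 minus wild type at 100 and at 70 days and for 100 minus 70 days in each genotype. At 70 days the intervals of Vpreb3, Cd72 and Cd22 lie above 0, and none of the 8 genes passed adjustment in any panel.

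The change of the genotype difference between the ages was below 0 for all 8 genes, with a median of -0.25 against -0.03 over all genes, of which 57.2% lay below 0. None passed, nor did any of the 8403 genes in this limma test (0%), of which 1.44% had an unadjusted p under 0.05. Cd22 had the smallest p-value of the 8 (-0.53, SE 0.25, adjusted p = 1.0), and Fcer2a the largest size (-0.56, SE 0.43). The second Fcer2a probe gave -9.1e-05 (SE 0.34), so that size rests on the brighter probe alone. For Blk the change was -0.01, and it turned to 0.00 to 0.04 under 5 other settings. This comparison and the genotype comparisons use the same arrays and are not independent.

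Within G93A-SOD1 mice all 8 genes had a lower mean at 100 than at 70 days, with a median difference of -0.35 against -0.01 over all genes (51.4% of them below 0), and none passed the test. In this comparison 0% of all genes passed by limma, 5.89% had an unadjusted p under 0.05, and 3 of the 8 genes were lower at that level (Cd72, Cd22 and Vpreb3), where 3.59% of all genes were. The Cd72 arrays lay at 8.92 to 9.85 at 100 days and at 9.62 to 10.64 at 70 days. All 8 arrays of the older mice lay below the median of the younger ones, with overlap. The difference was -0.60 (SE 0.17, adjusted p = 0.592), ranking 13 by p-value. Cd22 arrays lay at 7.18 to 7.98 at 100 days and at 7.67 to 8.50 at 70 days, a difference of -0.50 (SE 0.17, adjusted p = 0.647). The difference of Vpreb3 was -0.29 (SE 0.14, adjusted p = 0.836). Within wild type mice 4 genes lay above 0 and 4 below, with a median of 0.00 where 55% of all genes lay above 0, and the differences reached from -0.26 (Blk) to 0.12 (Fcer2a). The second Fcer2a probe gave -0.33 (SE 0.24) between the wild type ages, opposite in sign to the brighter probe. That of Cd79b gave -0.35 (SE 0.22), in the direction of the brighter probe. There too 0% of all genes passed by limma, 9.71% had an unadjusted p under 0.05, and 0 of the 8 genes did.

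Other genes of the B lineage were read from lists of related genes. These lists were chosen with earlier results in view. By limma none of their genes passed the test in any blood comparison, and at 70 days 1 of 20 signalling genes, 2 of 11 transcription factors, 3 of 21 surface genes and 0 of 10 MHC class II genes had an unadjusted p under 0.05 (all higher). At 70 days the B cell surface and survival list had 17 of 21 tested genes above 0 and a median of 0.24. Its smallest p-values belonged to Tnfrsf13c, the BAFF receptor needed for B cell survival (difference 0.49, adjusted p = 0.687 by limma), and to the receptor-like gene Fcrl1 (0.39, adjusted p = 0.734). The B lineage transcription factors had 9 of 11 genes above 0 and a median of 0.15. Among them Bcl6, which encodes a transcriptional repressor required by germinal centre B cells, differed by 0.47 (adjusted p = 0.673) and Bcl11a by 0.36 (adjusted p = 0.782).

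The B cell receptor signalling list had 14 of 20 genes above 0 with a median of 0.09, and its smallest p-value belonged to Rasgrp3, a Ras activator (0.30, adjusted p = 0.782). MHC class II genes, with which B cells present antigen, had 8 of 10 above 0 with a median of 0.19. H2-Oa, a regulator of peptide loading, differed by 0.31 (adjusted p = 0.863). The plasma cell list had 1 of 4 genes above 0 (median -0.05), and the list of pro-B and pre-B cells 1 of 2 (median -0.01).

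At 100 days the medians were 0.12 for receptor signalling, 0.05 for the transcription factors, 0.11 for surface and survival, and 0.09 for MHC class II. Between the ages the transcription factors had 10 of 11 genes below 0 in G93A-SOD1 mice (median -0.22) and 7 of 11 in wild type mice (median -0.15). Pou2f2, which encodes the octamer-binding factor OCT2, differed by -0.60 in G93A-SOD1 mice (adjusted p = 0.647) and by -0.41 in wild type mice (adjusted p = 0.535). Mef2c differed by -0.50 in G93A-SOD1 mice (adjusted p = 0.651), and Pou2af1, which encodes a coactivator of octamer-binding factors, by -0.48 in wild type mice (adjusted p = 0.494). The chemokine receptor gene Cxcr4 lay the other way in both genotypes, at 0.58 in G93A-SOD1 mice (adjusted p = 0.651) and 0.52 in wild type mice (adjusted p = 0.449). Also above 0 were Bcl10 (0.25, adjusted p = 0.647 by limma) and Cd81 (0.35, adjusted p = 0.816) in G93A-SOD1 mice. In that comparison 13 of the 20 signalling genes lay below 0 (median -0.12). Cd83 lay above 0 in wild type mice (0.43, adjusted p = 0.493).

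Markers of other blood cells were compared in the same way. At 70 days the T cell list had 16 of 18 genes above 0 and a median of 0.11, the neutrophil list 5 of 14 and -0.14, the natural killer list 2 of 10 and -0.19, the platelet list 5 of 12 and -0.03, and the red cell list 6 of 11 and 0.05. The monocyte list had 6 of 8 genes below 0 and a median of -0.71, with array means of -1.15 to 0.12 in G93A-SOD1 blood and -1.06 to 1.18 in wild type blood. The array means of the 8 B cell genes at 70 days were 0.29 to 0.59 in G93A-SOD1 blood and -0.38 to 0.56 in wild type blood, relative to the mean of all wild type arrays. The G93A-SOD1 arrays at 70 days thus lay in a narrow band that overlapped the upper end of the wild type arrays.

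At 100 days between the genotypes the neutrophil list had 14 of 14 genes above 0 (median 0.29), the T cell list 16 of 18 (0.13), the platelet list 8 of 12 (0.01) and the natural killer list 5 of 10 (-0.01), while the monocyte list had 7 of 8 below 0 (-0.18) and the red cell list 8 of 11 (-0.11). Within G93A-SOD1 mice between the ages, where all 8 B cell genes lay below 0, the neutrophil list had 10 of 14 genes above 0 (median 0.39, smallest adjusted p = 0.0790), the monocyte list 8 of 8 (0.25), the platelet list 11 of 12 (0.31) and the natural killer list 8 of 10 (0.18). The T cell list had 13 of 18 below 0 (-0.11) and the red cell list 7 of 11 (-0.05). At an unadjusted p under 0.05, 7 of the 14 neutrophil genes were higher at 100 days by limma, and none passed adjustment. The part of these cells in the differences of the B cell genes was not tested.

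**Figure D3:**
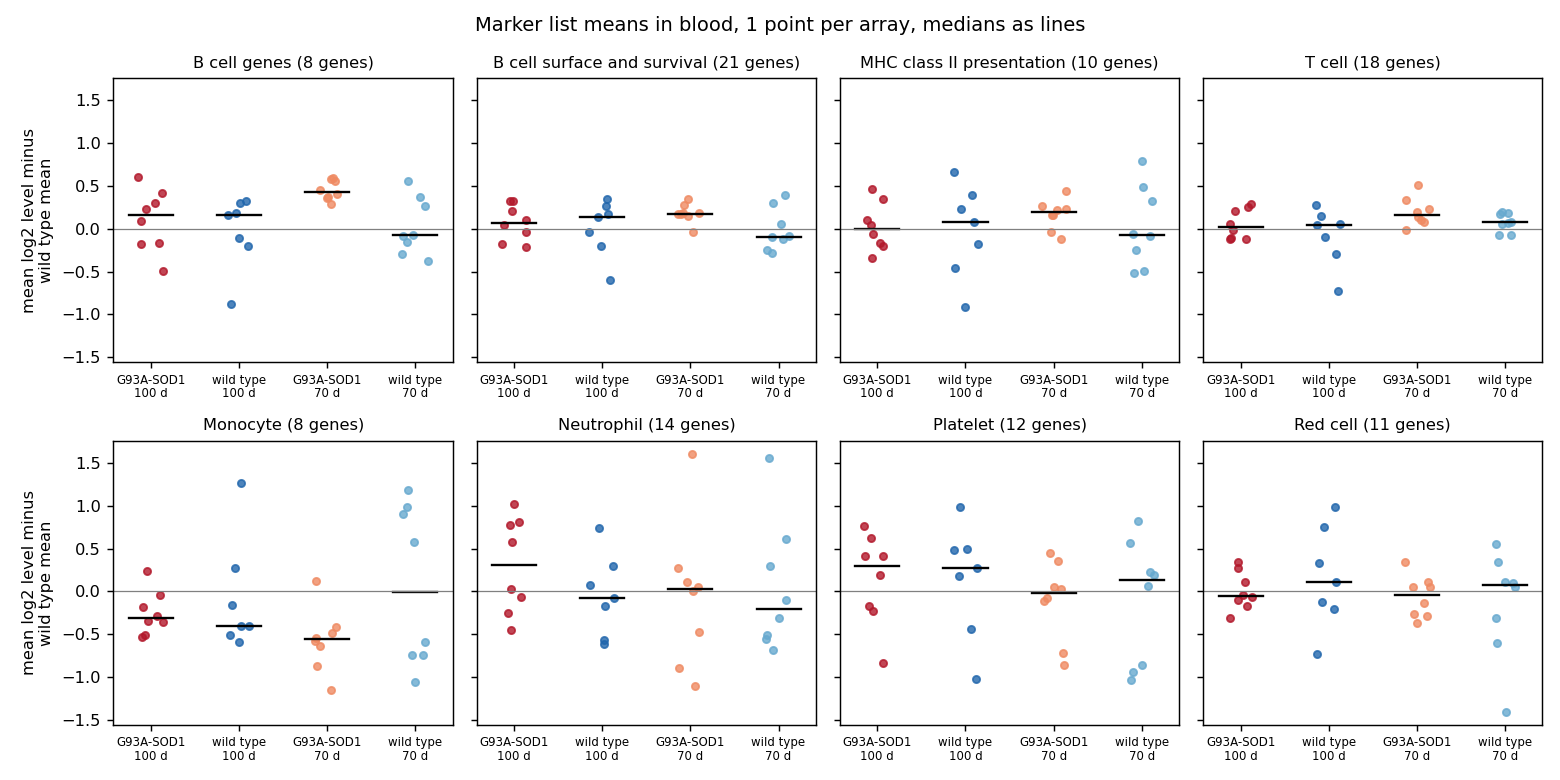
Mean log2 level of each marker list on each blood array (points), relative to the mean of all wild type blood arrays, with group medians as lines. The B cell genes of G93A-SOD1 mice at 70 days lie between 0.29 and 0.59, and those of wild type mice at 70 days between -0.38 and 0.56.

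The 8 genes varied together from array to array within groups. After group means were removed, Pearson's r was above 0 for all 28 pairs over the 31 blood arrays (median 0.56, range 0.17 to 0.86). By permutation within groups, 21 of 28 pairs passed (adjusted p under 0.05 over the 28 pairs), also 21 by Spearman's rho. The share among pairs of other genes is not given here, so the count is not particular to these genes. With median centring all 28 pairs passed, with a median r of 0.86. Cd79a and Blk were the closest pair, with r = 0.86 and rho = 0.88 (permutation p = 1e-05 for each, the smallest that 100000 permutations can give), and r was 0.82 without the 2 arrays farthest from the Cd79a median. Cd79b and Blk followed with r = 0.82. The partner chains Cd79a and Cd79b had r = 0.73, with 0.49 in G93A-SOD1 arrays (n = 16) and 0.83 in wild type arrays (n = 15).

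Fcer2a stood apart. Of its 7 pairs 1 passed, that with Ms4a1 (r = 0.60, rho = 0.45, permutation adjusted p = 0.00667), and r was 0.36 without the 2 farthest arrays. Its other pairs had r of 0.17 to 0.27. Of the 21 pairs without Fcer2a, 20 passed, and the exception was Cd72 with Ms4a1 (r = 0.30, permutation adjusted p = 0.133). Within genotypes, 9 pairs passed in G93A-SOD1 arrays and 12 in wild type arrays, with medians of 0.55 and 0.57. Whether the genotypes differ in these correlations was not tested.

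**Figure D4:**
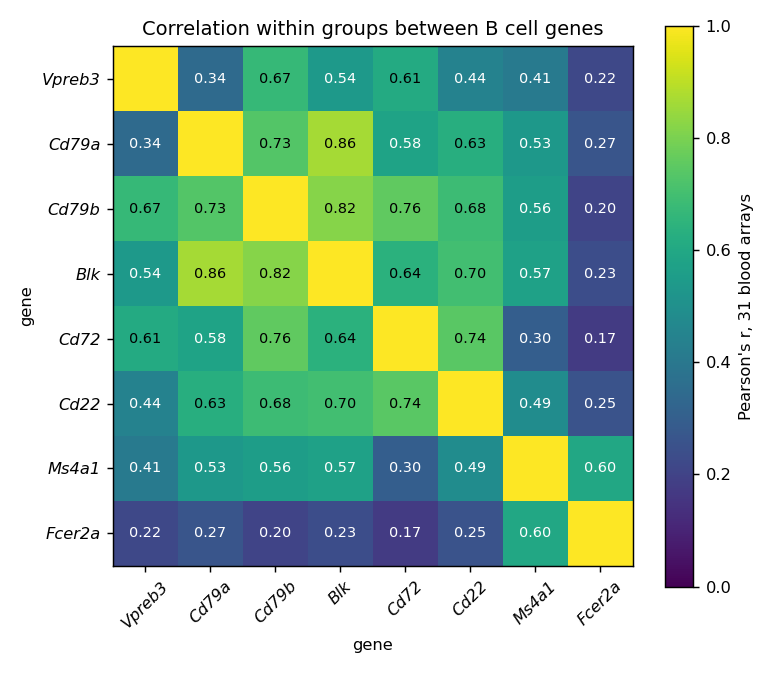
Pearson's r between each pair of the 8 tested genes over 31 blood arrays after group means were removed, as colour and number. The block from Vpreb3 to Ms4a1 holds values from 0.30 to 0.86, and Fcer2a has 0.17 to 0.27 with every gene but Ms4a1 (0.60).

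The genes most like the B cell genes were found by their correlation with the mean of the 8 over the same 31 arrays, as a description. The 10 closest of 8395 other genes had r of 0.87 to 0.93, where the median over all genes was 0.14 and 0.643% exceeded 0.8. They were Cd74, the invariant chain of MHC class II (0.93), Klf2 (0.92), Blnk, the adaptor that links the receptor to its signalling (0.89), the sialyltransferase gene St6gal1 (0.88), H2-Ab1 and H2-Eb1 (0.88 each), Fcmr, the receptor for IgM (0.88), Gpr18 (0.87), and 2 probes without a gene symbol (both 0.92). The list means of B lineage transcription factors and MHC class II genes had r of 0.93 and 0.92 with the 8 genes, the red cell list -0.78, the platelet list -0.64 and the T cell list 0.39. All of these values come from the same arrays and share their normalization.

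Outside blood the genes were at or near background. In spinal cord Cd72 was detected on 9 of 31 arrays and Cd79b on 7, and both entered the tests there. Vpreb3, Cd79a and Blk were detected on 1 array each, Ms4a1 on 2, and Cd22, Fcer2a and Pax5 on none. In muscle none of the 9 genes reached 7 arrays, so none was tested: Ms4a1 was detected on 6 of 30 arrays, Cd72 on 5, Cd79b on 3 and Pax5 on 1.

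With all arrays normalized together, Cd79a of wild type mice was at least 103-fold higher in blood than in spinal cord and at least 74.3-fold higher than in muscle. These are bounds because the gene was not well above background in either tissue: the bright group's mean was set against the lowest signal that was well above background on each array. Vpreb3 was at least 34.7-fold higher in blood than in spinal cord and Fcer2a at least 12.3-fold. Blk averaged 9.70 in wild type blood and 4.75 in wild type spinal cord, where it was detected on 1 of 15 arrays. Cd22 was at least 7.9-fold higher in blood than in muscle, and Fcer2a at least 8.82-fold. Cd79b averaged 12.90 in wild type blood and 4.84 in wild type spinal cord, where it was detected on 3 of 15 arrays. No fold is given for Blk and Cd79b against spinal cord, since most of those arrays did not detect them, nor for Pax5. The size of these differences depends on the scaling: the median over the 9 genes of wild type blood minus spinal cord, from measured means, was 4.95 log2 units with all arrays normalized together, 4.01 with each tissue normalized on its own and 2.18 in the deposited matrix values.

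Cd72 was the member detected unevenly between the genotypes outside blood. In spinal cord it was detected on 8 of 16 G93A-SOD1 arrays (5 of 8 at 100 days and 3 of 8 at 70 days), against 1 of 15 wild type arrays (1 of 7 at 100 days and 0 of 8 at 70 days). In muscle it was detected on 5 of 15 G93A-SOD1 arrays (4 of 7 at 100 days and 1 of 8 at 70 days), against 0 of 15 wild type arrays. Muscle arrays at 100 days detected a median of 9674 probes in G93A-SOD1 and 8989 in wild type mice. In spinal cord at 100 days the medians were 11867.5 and 11748. The share of all probes with such uneven detection is not given here. Cd72 levels were low: at 100 days the spinal cord of G93A-SOD1 mice averaged 5.25 ± 0.36 (SD, n = 8) and that of wild type mice 4.89 ± 0.27 (SD, n = 7), with overlapping arrays. Cd72 entered the spinal cord tests mainly through the G93A-SOD1 arrays, which held 8 of its 9 detections, so the fit there is given as a description. The means above are from all arrays normalized together, while the fit used spinal cord normalized on its own. In the fit the difference was 0.55 (SE 0.21) at 100 days, with an adjusted p of 1.0 by limma. It was 0.45 (SE 0.20) at 70 days, with an adjusted p of 0.740, and -0.057 in the deposited matrix values. Neither passed the threshold, which 0.0185% of 10801 genes passed at 100 days and 0.0278% at 70 days. Cd79b, the other member tested there, differed by 0.23 at 100 days (-0.056 with array weights) and by 0.08 at 70 days (-0.13 in the matrix values). On these G93A-SOD1 arrays the defining receptor gene Cd79a was detected on 1 of 16 in spinal cord and 0 of 15 in muscle. Other marker lists, including that of B cell receptor signalling, were read on the same arrays as a description, and only some are printed. The share of all genes above 0 in these tissues is not given here. Like Cd72, genes of these lists could enter the tests mainly through the G93A-SOD1 arrays. Their counts above 0 are therefore not evidence of a difference. In spinal cord at 100 days all 6 tested genes of the monocyte list (of 16) lay above 0, with a median of 0.66 against 0.02 over all genes, as did 11 of 13 genes of the B cell receptor signalling list (median 0.42), and none passed. At 70 days 5 of 6 monocyte genes lay above 0 (median 0.54, against -0.03 over all genes). In muscle at 100 days all 5 tested monocyte genes (median 0.49) and all 7 MHC class II genes (median 0.69) lay above 0, against a median of -0.01 over all genes. Of these, 1 monocyte gene and 0 MHC class II genes passed, where 10.8% of all 9089 genes did. The part of these cells in the Cd72 signal was not tested.

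**Figure D5:**
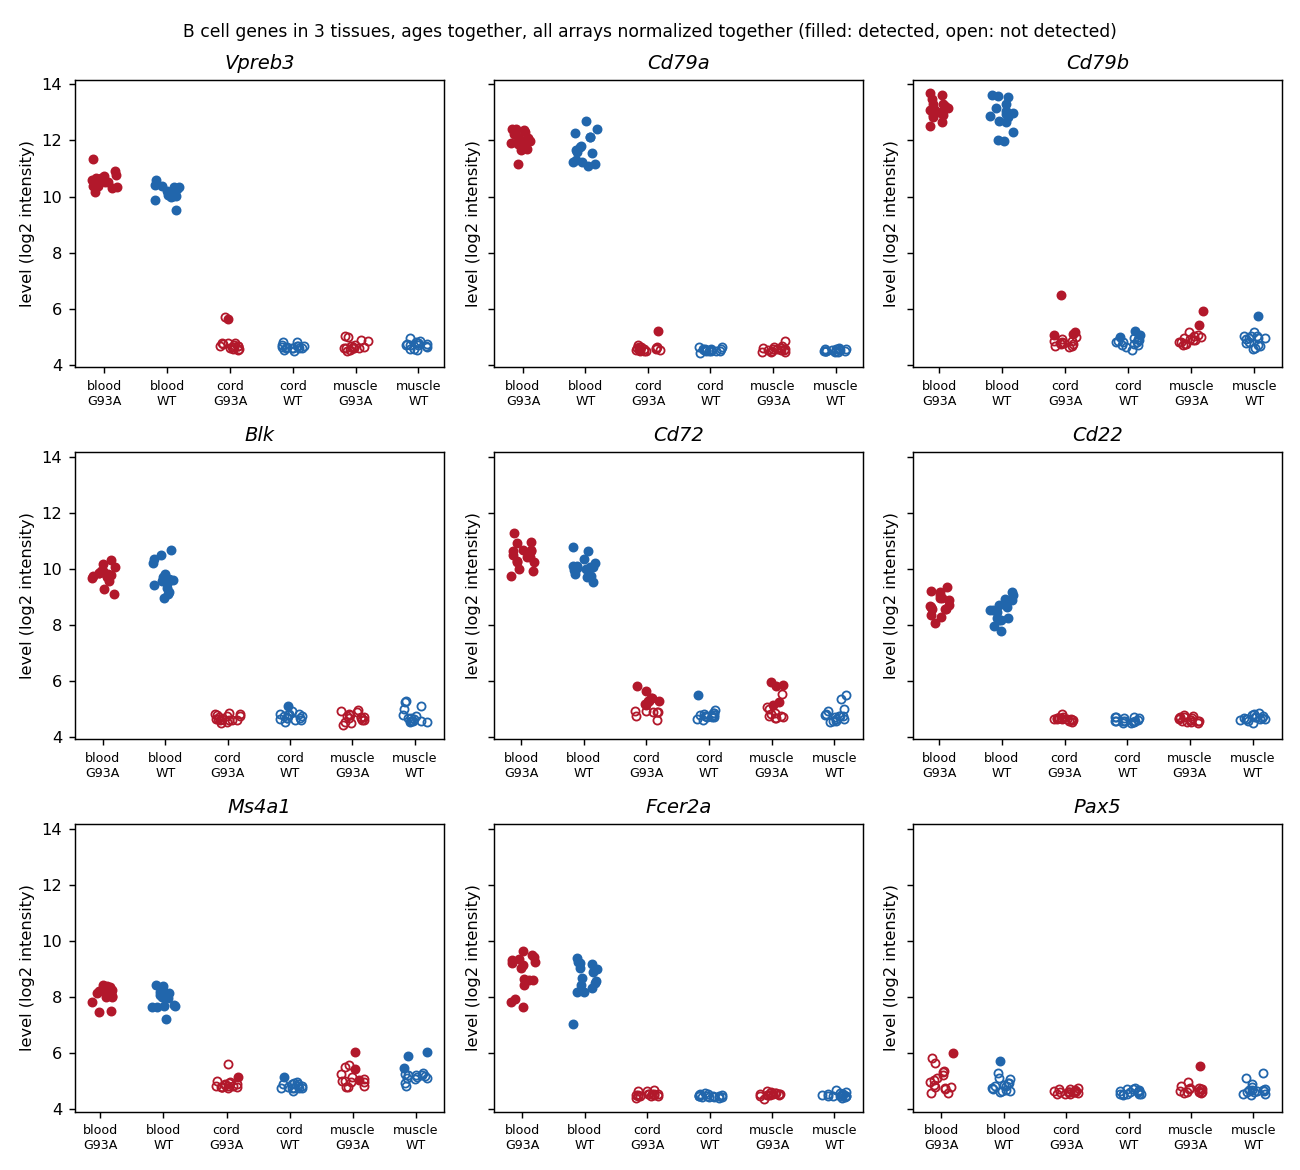
Level (log2 intensity, all arrays normalized together) of each gene in blood, spinal cord (cord) and muscle of G93A-SOD1 (red) and wild type (WT, blue) mice, ages together, with filled points where the probe was detected. Blood arrays lie well above the other tissues for every gene but Pax5, and Cd72 has filled points on 8 G93A-SOD1 and 1 wild type spinal cord arrays.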

How the data were processed

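The deposited files give, per the file headers, a non-normalized signal intensity and a detection p-value for each of 24613 probes; how the authors' scanner software made them is not stated. The authors also deposited log2 values of unknown normalization as a matrix, which served as an alternative. Per the labels, PAXgene tubes were used for blood and globin RNA was removed. The 7 lines lacking a probe identifier (0.00539% of signal) were not used.

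Each tissue was background corrected and quantile normalized by neqc of limma (offset 16, controls inferred from the detection p-values). Tests took probes with a detection p-value below 0.05 on 7 or more arrays of the tissue, and the brightest probe per gene. Symbols come from the platform annotation (20984 probes have a single symbol, 1 has several, and 3628 have none and stayed in the tests under their identifier), matched to RefSeq genes of GRCm38.p6. The model of limma held the 4 groups of a tissue, its statistics were moderated, and p-values were adjusted by Benjamini-Hochberg over all tested genes. Every p-value of a gene in the text comes from these fits. A list mean averages, over the tested genes of the list, the log2 level of an array less the mean of the wild type arrays. The procedure was tested on simulated data.

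The genes and lists were chosen with earlier results of these data known. Named are all 9 genes, the smallest p-values of each B cell list (2 per comparison, of which some are printed), and the 10 genes most correlated with the 8 tested ones. Within blood groups, 105 pairs of arrays included 0 identical ones. Alternatives were a replicate block, array weights, joint normalization, median centring, the matrix values, a trended robust variance, no background correction, a detection p-value under 0.01, no detection filter, every probe, fits on only the groups compared, and leaving out each blood array. Software was R 4.3.3, limma 3.58.1, data.table (1.17.8), Python 3.11.15, numpy 2.4.6, pandas 2.3.3, scipy 1.17.1 and matplotlib 3.10.9.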

Additional observations from a re-analysis of the deposited data

Results flagged for a closer look

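Fcer2a in wild type blood at 100 days had 1 array, replicate 7, far below the others: its level was 6.15, while the other 6 arrays lay between 7.53 and 8.39. It was the only such array among 32 combinations of gene and blood group examined by Dixon's criterion, which chance alone would flag in about 1 of 20. The same array was the lowest of its group for all 8 tested genes. Without it the Fcer2a difference at 100 days was -0.35, against -0.07 with it.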

How the results depend on the processing

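None of the 8 genes passed the test in any blood comparison under 11 alternative settings or after leaving out each of the 31 blood arrays. In the 70 day comparison all 8 kept a difference above 0 under each of these. Adjusted p-values of Vpreb3 were 0.135 to 0.422 under the settings and 0.0950 to 0.448 without single arrays. Median centring moved the median of the 8 genes at 70 days to 0.82, with all genes shifted by 0.28. At 100 days the median of the 8 genes ran from 0.00 to 0.24 without single arrays. With median centring Fcer2a (0.11) and Cd22 (0.17) turned positive at 100 days, as did Vpreb3 (0.034) and Cd79b (0.044) between the ages of the wild type. With array weights Vpreb3 between those ages was 0.00443 and Cd79b in spinal cord at 100 days -0.056. The Blk interaction was 0.0015 without background correction, 0.0011 with joint normalization, 0.0049 with array weights, 0.035 with the replicate block and 0.011 with the matrix values. The matrix values gave -0.057 for Cd72 and -0.13 for Cd79b in spinal cord at 70 days. The replicate block gave -0.053 for Cd79a between wild type ages.

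Leaving out single arrays turned the sign of small differences. At 100 days Cd22 ran from -0.14 to 0.057, Fcer2a from -0.35 to 0.074 and Ms4a1 from -0.10 to 0.10. The Blk interaction ran from -0.14 to 0.13. Between wild type ages Cd22 ran from -0.041 to 0.16, Cd79a from -0.062 to 0.24 and Vpreb3 from -0.11 to 0.074. Between G93A-SOD1 ages Cd79a ran from -0.20 to 0.030.

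Counts of all genes called moved as follows. At 70 days in blood (6 genes) median centring gave 1, and single arrays left out gave 3 to 8. At 100 days (5 genes) median centring gave 1, only the groups compared 3, array weights 13, and single arrays left out 3 to 9, the 9 without replicate 7 of wild type. Between wild type ages (0 genes) no background correction gave 1, the replicate block 2, the matrix values 1, and single arrays left out 0 to 3. Between G93A-SOD1 ages (0 genes) array weights gave 7, the replicate block 1, and single arrays left out 0 to 1. In spinal cord median centring gave 1 at 70 days and 0 at 100 days, array weights 6 and 4, only the groups compared 1 at 100 days, and the replicate block 8 at 100 days. The median difference of the genes between wild type blood and spinal cord was 4.95 with all arrays normalized together, 4.01 when each tissue was normalized on its own and 2.18 in the matrix values. Median centring gave 28 correlated pairs and a median r of 0.86. The causes were not tested. Blood arrays of the 2 genotypes that share a replicate number had r over 0.1 between their deviations in 13 of 15 pairs (-0.23 to 0.44, median 0.25), against 31 of 105 pairs with different numbers (median -0.05), and 4 of 15 G93A-SOD1 arrays correlated best with their own number. This is a hint from the data that the numbers may share structure. Since the labels give no pairing and 2 pairs lay under 0.1, the arrays were not paired, and the replicate block changed no call of a B cell gene. A fit with array chip or batch as a term was not run, since no file used here names one. The Pax5 probe was not detected on 29 of 31 blood arrays, which limits any statement on it.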
